A study of Mus musculus with 96 samples.

Results

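The genes described here are 9 of the 19836 in the table: Il2rg, Il7r, Flt3, Ltb, Selplg, Ptprcap, Tespa1, Tbc1d10c and Arhgdib, under the working name lymphoid-primed signalling genes. Each was found in the table by its symbol, 1 row per gene, and all 9 passed the minimum of 30 reads over all cells. The members were selected on results of these same cells, and their levels and shares of cells with a read count as used for that choice. Their values below are therefore a description, with no test.

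The study sorted single haematopoietic stem cells (HSCs) and pre-HSCs, the cells before them, from C57BL/6 mouse embryos, with 1 cell per well and cDNA made with a SMART-Seq kit. The AGM group held 48 pre-HSCs of the aorta-gonad-mesonephros, the region around the embryonic aorta, at E11.5 (embryonic day). The yolk sac group held 16 pre-HSCs of the same day. Both E11.5 groups were sorted as Ter119-, CD11b-, CD144+, c-kit+ and EPCR+. Fetal liver gave 16 HSCs at E12.5, sorted as Ter119-, Sca-1+, c-kit+ and EPCR+, and 16 HSCs at E14.5, sorted as Ter119-, Sca-1+, c-kit+, CD48- and CD150+. No treatment or genetic change is named for any group. Tissue, age and gate changed together from E11.5 to the liver, and their parts in a difference cannot be told apart. Age and gate also changed together between the liver groups, and their parts there cannot be told apart either. Animals and litters are not named in the labels. Each group therefore counts as 1 sample and no difference below has a replicate check.

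Multipotent blood progenitors can transcribe genes of several lineages at low levels before they commit, a state called lineage priming. In adult marrow, progenitors that gain FLT3 and then the IL-7 receptor are the ones that lead toward lymphocytes. The other genes act in signalling, adhesion or cytoskeletal control in lymphocytes, and several of them are also used by other leukocytes and by progenitors.

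Single cells held between 250235 and 1926882 reads, with medians of 5522.5 genes detected per cell in AGM, 5349.5 in yolk sac, and in liver 4036 at E12.5 against 4839 at E14.5. Levels are CPM, reads of a gene scaled to a common total, either for 1 cell or for the summed reads of a group (pooled CPM). E12.5 cell 8 stood apart, with 1011 genes detected and a summed level of 19634 CPM of 5 macrophage markers. Globin transcripts summed to over 1000 CPM in 2 E12.5 cells, cell 8 among them, and in 5 E14.5 cells. More than 10000 genes were detected in 3 AGM cells, 2 yolk sac cells and 1 E12.5 cell. Counts of the 9 genes per cell and of pairs that met in a cell are given also without these last cells.

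Upstream sequence is shown for 3 of the genes that were higher in liver, to show what lies before their start sites. The RefSeq promoter table (GRCm38.p6, the same build as mm10) held 5 of the 9 genes. Each stretch below is the 250 bases before the start, on the gene's strand, 5′ to 3′. Il2rg is at chrX:101268256-101268505, Flt3 at chr5:147400490-147400739 and Arhgdib at chr6:136941900-136942149, all on the minus strand. Capitals mark matches to letters bound by ETS factors (GGAAGT or CGGAAG), RUNX factors (TGTGGT) or E-box factors (CAGGTG), searched on both strands.
Il2rg: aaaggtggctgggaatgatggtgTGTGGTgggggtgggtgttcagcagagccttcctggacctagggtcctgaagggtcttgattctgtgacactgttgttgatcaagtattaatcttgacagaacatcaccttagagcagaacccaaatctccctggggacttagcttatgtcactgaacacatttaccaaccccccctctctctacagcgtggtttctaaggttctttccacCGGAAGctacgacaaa
Flt3: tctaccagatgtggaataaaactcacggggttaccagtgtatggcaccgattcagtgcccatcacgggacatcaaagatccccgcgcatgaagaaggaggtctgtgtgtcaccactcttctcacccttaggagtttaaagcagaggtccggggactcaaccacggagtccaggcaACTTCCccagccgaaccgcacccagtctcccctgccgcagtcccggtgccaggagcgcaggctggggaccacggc
Arhgdib: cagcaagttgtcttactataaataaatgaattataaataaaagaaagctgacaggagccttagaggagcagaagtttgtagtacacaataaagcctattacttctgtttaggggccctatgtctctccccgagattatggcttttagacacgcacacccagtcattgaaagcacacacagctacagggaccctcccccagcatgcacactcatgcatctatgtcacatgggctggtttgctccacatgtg
In Il2rg the capitals are a RUNX match from base -227 to -222 and an ETS match, CGGAAG, from base -16 to -11, counted from the start. Flt3 had 1 match, an ETS GGAAGT on the other strand from base -75 to -70, which reads ACTTCC as printed. None of the 4 motifs was found in this Arhgdib stretch, 1 of 3 that the table gives for the gene. Of the other two, that at chr6:136941504-136941753 had an ETS GGAAGT on the other strand from base -233 to -228 and an E-box match from base -117 to -112, and that at chr6:136939528-136939777 had none. Such matches are common: of 32851 promoter stretches of this length, 19.7% held GGAAGT, 13.6% CGGAAG, 14.05% TGTGGT and 17.2% CAGGTG. A match describes letters only, and binding was not measured.

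Il2rg (ENSMUSG00000031304.18, chrX:101264378-101268255, minus strand) encodes the common gamma chain shared by the receptors for IL-2, IL-4, IL-7, IL-9, IL-15 and IL-21. Its pooled level was 46.98 CPM in AGM (counting interval 45.3 to 48.7), 133 CPM in yolk sac (128 to 138), 335 CPM in E12.5 liver (326 to 343) and 431 CPM in that of E14.5 (422 to 440). Intervals of pooled values here are exact 95% Poisson intervals and, like all intervals below, cover counting error only. Il2rg had reads in 26 of 48 cells in AGM, 13 of 16 in yolk sac, and in liver 12 of 16 at E12.5 against 15 of 16 at E14.5. The lowest, median and highest cell had 0, 0.675 and 347 CPM of Il2rg in AGM, and 0, 405 and 780 CPM at E14.5. Yolk sac cells ran from 0 to 384 CPM of Il2rg with a median of 134, and E12.5 cells from 0 to 911 CPM with a median of 313. The E14.5 median lay above the highest AGM cell, although the ranges of all 4 groups overlapped at 0. In the GENCODE M21 annotation, Gm20489 on the same strand covers 30.5% of the exon bases of Il2rg. Gm20489 had 7 reads over all cells.

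Il7r (ENSMUSG00000003882.4, chr15:9505788-9530176, minus strand) encodes the IL-7 receptor alpha chain, a marker of lymphoid progenitors. It was the most sparsely detected of the set, with reads in 9 of all 96 cells. The AGM cells with a read were cells 8, 27, 30 and 43, at 1.70, 7.42, 64.4 and 46.9 CPM of Il7r. In yolk sac they were cells 1, 2 and 5, at 0.520, 31.6 and 91.3 CPM of Il7r. One cell had reads in each liver group, which is 1 of 16: E12.5 cell 1 at 44.99 CPM of Il7r and E14.5 cell 6 at 112 CPM. Pooled Il7r was 3.09, 8.11, 2.36 and 5.34 CPM in AGM, yolk sac, E12.5 and E14.5. Each of these rested on 1 cell or a few: without yolk sac cell 5 its value was 1.97 CPM, without AGM cells 30 or 43 that of AGM was 1.40 or 2.04 CPM, and without the single positive cell each liver group was at 0. Shares of cells with an Il7r read were 8.33% in AGM (exact Clopper-Pearson 95% interval 2.32% to 19.98%), 18.75% in yolk sac (4.05% to 45.6%) and 6.25% in each liver group (0.158% to 30.2%). At this number of cells no difference in Il7r between groups was detectable.

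Flt3 (ENSMUSG00000042817.15, chr5:147330741-147400489, minus strand) encodes the receptor tyrosine kinase for FLT3 ligand. Pooled Flt3 was 51.1 CPM in AGM (49.3 to 52.9), 85.5 CPM in yolk sac (81.7 to 89.5), 187.5 CPM in E12.5 liver (181.4 to 193.7) and 158.3 CPM in that of E14.5 (152.9 to 163.8). The cells with a Flt3 read numbered 22 of 48, 13 of 16, 10 of 16 and 11 of 16 in that order. In AGM the cells ran from 0 to 428 CPM of Flt3 with a median of 0, and in E14.5 liver from 0 to 397 CPM with a median of 84.1. Yolk sac cells had 0, 62.03 and 596 CPM of Flt3 as lowest, median and highest, and E12.5 cells 0, 44.6 and 906. Every group therefore held cells with no Flt3 read beside cells far above its median, and the ranges overlapped throughout.

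Ltb (ENSMUSG00000024399.5, chr17:35194439-35196320, plus strand) encodes lymphotoxin beta, the membrane subunit of a ligand of the TNF family that signals through the lymphotoxin beta receptor. Pooled Ltb was 146.1 CPM in AGM (143.1 to 149.2), 104 CPM in yolk sac (99.4 to 108), 306 CPM in E12.5 liver (298 to 314) and 330 CPM in that of E14.5 (322 to 338). The AGM value leaned on cell 40, which had 3494 CPM of Ltb where the next AGM cell had 792. Without cell 40, AGM stood at 83.2 CPM of Ltb, below the yolk sac value. Cells with an Ltb read numbered 33 of 48 in AGM, 10 of 16 in yolk sac, and in liver 13 of 16 at E12.5 against 16 of 16 at E14.5. The median cell had 32.4 CPM of Ltb in AGM, 32.1 in yolk sac, and in liver 106 at E12.5 against 295 at E14.5. E14.5 liver was the only group in which no cell lacked Ltb, and its lowest cell had 15.1 CPM. The highest cell reached 665 CPM of Ltb in yolk sac, and in liver 1181 at E12.5 against 1048 at E14.5, so the ranges overlapped.

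Selplg (ENSMUSG00000048163.13, chr5:113818536-113832644, minus strand) encodes PSGL-1, the leukocyte ligand of P-selectin. Its pooled level was alike in AGM, at 59.5 CPM (57.6 to 61.5), and in yolk sac, at 58.1 CPM (55.0 to 61.4). It was 330 CPM in E12.5 liver (322 to 338) and 272 CPM in that of E14.5 (265 to 280). AGM cell 41 alone had 794 CPM of Selplg, and the AGM value was 38.7 CPM without it. Selplg reads were found in 20 of 48 cells in AGM, 9 of 16 in yolk sac, and in liver 10 of 16 at E12.5 against 14 of 16 at E14.5. The median cell had 0, 19.1, 95.8 and 247 CPM of Selplg in that order, and the highest had 794, 199.2, 1279 and 689. Cells without a read remained in every group, down to 2 of 16 at E14.5.

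Ptprcap (ENSMUSG00000045826.8, chr19:4153604-4156751, plus strand) encodes a small membrane protein that associates with the phosphatase CD45. Pooled Ptprcap was 75.3 CPM in AGM (73.2 to 77.6), 269 CPM in yolk sac (262 to 276), 951 CPM in E12.5 liver (937 to 965) and 628 CPM in that of E14.5 (618 to 639). Reads were present in 24 of 48, 12 of 16, 16 of 16 and 15 of 16 cells. The lowest, median and highest cell had 0, 0.355 and 435 CPM of Ptprcap in AGM and 0, 183.3 and 1495 in yolk sac. At E12.5 these were 3.996, 941 and 2441 CPM of Ptprcap, and at E14.5 they were 0, 797 and 1265. The median liver cell at either age thus exceeded the highest AGM cell. Exons of 2 other genes cover part of Ptprcap in the GENCODE M21 annotation of the same build: Rps6kb2 on the opposite strand covers 76.0% of its exon bases and Coro1b on the same strand 26.8%. Their pooled levels were 41.01, 47.2, 74.3 and 57.1 CPM for Rps6kb2 and 328, 315, 377 and 322 CPM for Coro1b, over the groups in the same order. Whether the counting used strand is not given in the sources used here, so reads of Ptprcap and Rps6kb2 cannot be told apart with certainty. Reads in the bases shared with Coro1b could not be told apart by strand in either case.

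Tespa1 (ENSMUSG00000034833.10, chr10:130322870-130364111, plus strand) encodes a protein needed for T cell receptor signalling during thymocyte selection. It was nearly absent from AGM, at 2.92 CPM pooled (2.50 to 3.38), with reads in 6 of 48 cells, of which 3 were under 10 CPM. Without AGM cell 20 or 46 this level was 1.94 or 1.49 CPM of Tespa1. Yolk sac, of the same day and gate, had 64.9 CPM of Tespa1 pooled (61.6 to 68.3), with reads in 10 of 16 cells and up to 331 CPM in cell 13. At E12.5 only cells 1, 6 and 11 had reads, at 38.99, 296 and 82.1 CPM of Tespa1, and the pooled level was 23.8 CPM, or 9.93 without cell 6. E14.5 liver had 129 CPM of Tespa1 pooled, or 70.8 without cell 7, with reads in 7 of 16 cells and 862 CPM in cell 7. The 95% interval of the share with a Tespa1 read was 4.73% to 25.2% in AGM, and that of yolk sac, at 62.5%, was 35.4% to 84.8%, so the intervals lay apart. In liver these shares were 18.75% at E12.5 (4.05% to 45.6%) and 43.75% at E14.5 (19.8% to 70.1%), with intervals that overlapped each other and that of AGM. Tespa1, Flt3 and Il7r were the 3 genes of the set whose share was highest in yolk sac.

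Tbc1d10c (ENSMUSG00000040247.5, chr19:4183411-4191284, minus strand) encodes carabin, an inhibitor of calcineurin and Ras in lymphocytes. It lies 26659 bases from Ptprcap, with Carns1 and Gm17552 between them. Pooled Tbc1d10c was 71.2 CPM in AGM (69.1 to 73.3), 182.4 CPM in yolk sac (176.9 to 188.1), 316 CPM in E12.5 liver (308 to 324) and 454 CPM in that of E14.5 (445 to 464). Reads were present in 21 of 48 cells in AGM, 12 of 16 in yolk sac, and in liver 13 of 16 at E12.5 against 16 of 16 at E14.5. At E14.5 the cells ran from 138 to 699 CPM of Tbc1d10c with a median of 497, a range narrower relative to its lowest cell than that of any other of the 9 genes there. AGM cells ran from 0 to 576 CPM of Tbc1d10c with a median of 0, so single AGM cells reached the E14.5 range. A processed transcript with the name AC109138.8 shares 35.5% of the exon bases of Tbc1d10c and was not analysed here.

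Arhgdib (ENSMUSG00000030220.13, chr6:136923655-136941899, minus strand) encodes a GDP-dissociation inhibitor of blood cells. It was detected in 95 of 96 cells, the exception being E12.5 cell 8. Pooled Arhgdib was 1028 CPM in AGM (1020 to 1037), 1652 CPM in yolk sac (1635 to 1669), 2986 CPM in E12.5 liver (2962 to 3011) and 2746 CPM in that of E14.5 (2724 to 2769). The lowest, median and highest cell had 133, 995 and 2078 CPM of Arhgdib in AGM and 534, 1615 and 3330 in yolk sac. In liver they had 0, 2988 and 4705 CPM of Arhgdib at E12.5 and 957, 2622 and 5200 at E14.5. The median liver cell thus lay above the highest AGM cell at both ages. Per kilobase of exon, Arhgdib was the most abundant of the 9 genes in every group, at 603, 968, 1750 and 1609 pooled CPM per kilobase, while the next, Ptprcap at E12.5, reached 590. Its widely expressed paralog Arhgdia had 305, 311, 274 and 323 CPM pooled, with no like difference between groups.

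**Figure D1:**
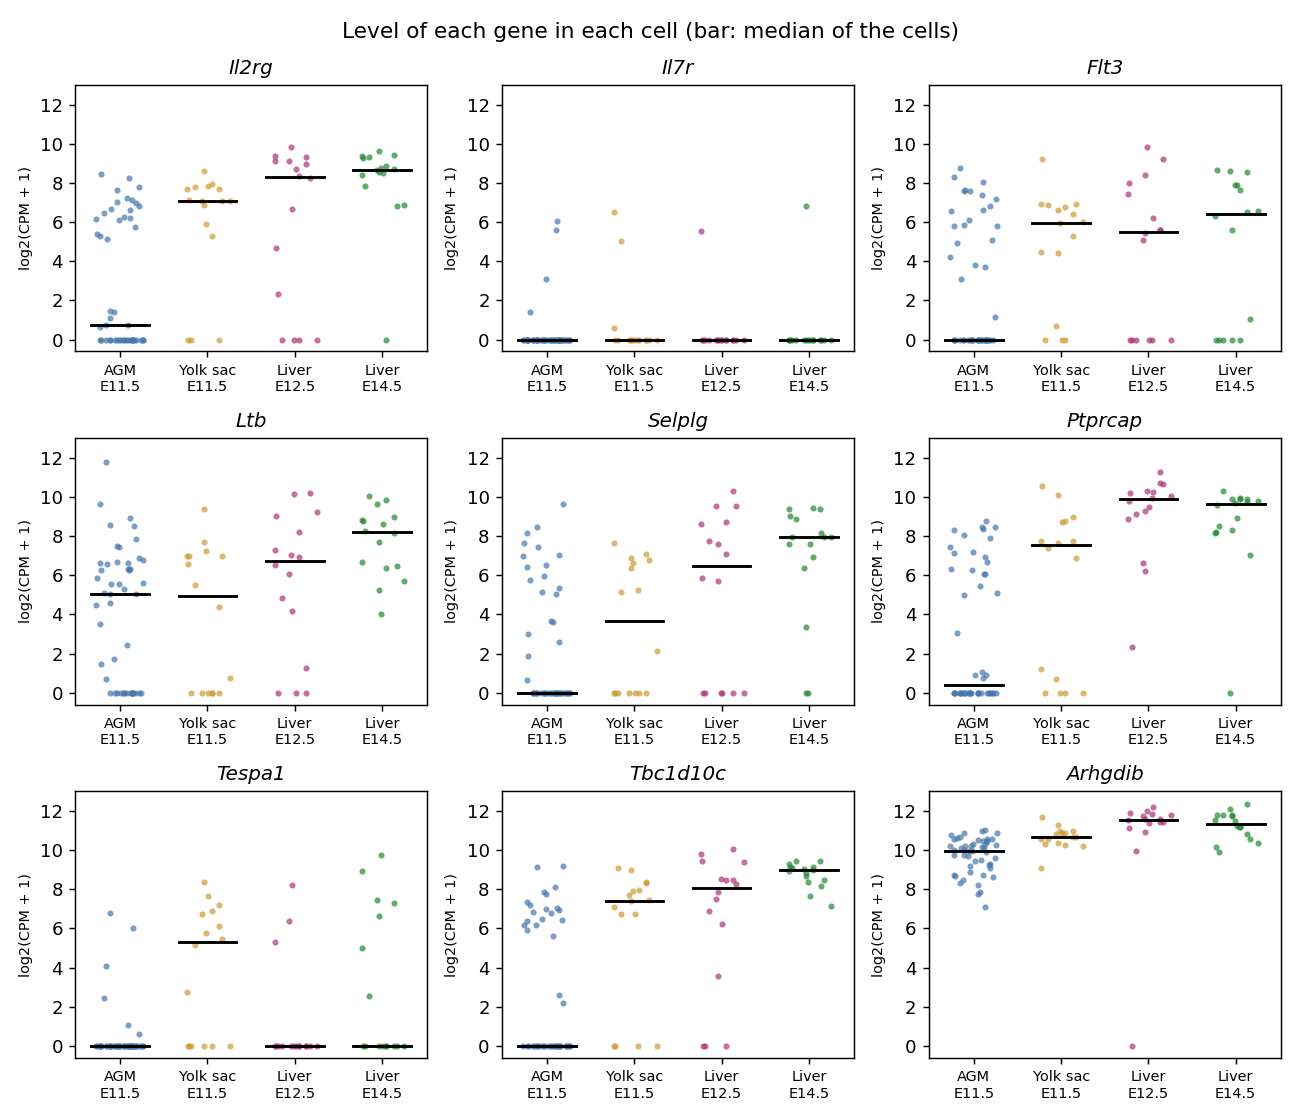
Level of each gene in each cell, on the y axis as log2(CPM + 1), for the 4 groups on the x axis (48, 16, 16 and 16 cells); a point is 1 cell and the bar is the median. Arhgdib is present in nearly every cell, Il7r in 9 cells, and the other genes split AGM cells into those with and without reads.

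Pooled levels were then set side by side as log2 ratios of pooled CPM + 1, which makes changes at low levels look smaller than they are. The 3 comparisons with AGM share the AGM cells and are not independent of each other. At least 2-fold higher means a log2 ratio of 1 or more.

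In yolk sac over AGM, both from E11.5 and the same gate, 5 of the 9 genes were at least 2-fold higher, where 8.61% of the 15239 genes with enough reads passed the same fold. These 5 were Tespa1 at 4.07, Ptprcap at 1.82, Il2rg at 1.48, Tbc1d10c at 1.35 and Il7r at 1.16 on the log2 scale. Flt3 (0.73) and Arhgdib (0.68) were higher by less than 2-fold, and Selplg (-0.03) and Ltb (-0.49) were not higher. None of the 9 was at least 2-fold lower, where 21% of all genes were. The median of the 9 log2 ratios was 1.16, beside -0.20 over all genes. Without the cells with more than 10000 genes detected, 4 of the 9 were at least 2-fold higher, Il7r being then at 0.97. The direction of 3 of these ratios hung on single cells. Ltb was 0.31 without AGM cell 40 and -1.06 without yolk sac cell 13. Il7r was -0.46 without yolk sac cell 5, and Selplg was 0.57 without AGM cell 41.

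In E12.5 liver over AGM, 8 of the 9 were at least 2-fold higher, beside 15.6% of all genes, and none was 2-fold lower, beside 26%. The log2 ratios were 3.64 for Ptprcap, 2.81 for Il2rg, 2.66 for Tespa1, 2.45 for Selplg and 2.13 for Tbc1d10c. Those of Flt3, Arhgdib and Ltb were 1.86, 1.54 and 1.06, and the exception was Il7r at -0.28. Ltb was at 0.52 without E12.5 cell 3, and Il7r had 0 reads left without E12.5 cell 1 and stood at 0.49 without AGM cell 30. The median over the 9 genes was 2.13 and over all genes -0.20.

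In E14.5 liver over AGM, 8 of the 9 were at least 2-fold higher, beside 15.3% of all genes, and none was 2-fold lower, beside 25.3%. Tespa1 had the largest log2 ratio at 5.05, then Il2rg at 3.17, Ptprcap at 3.04, Tbc1d10c at 2.66 and Selplg at 2.17. Flt3 stood at 1.61, Arhgdib at 1.42 and Ltb at 1.17, and Ltb was at 0.98 without E14.5 cell 11. Il7r was at 0.63, with 0 reads left without E14.5 cell 6 and at 1.40 without AGM cell 30. The median over the 9 genes was 2.17, beside -0.23 for all genes.

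Between the liver groups, which differ in age and gate, the set was nearly level. Its median log2 ratio was 0.11 in E14.5 over E12.5 beside 0 for all genes. Tespa1, at 2.39, was the 1 gene at least 2-fold higher, where 18.7% of all genes passed that fold, and none was 2-fold lower, beside 18.2%. Il7r (0.92), Tbc1d10c (0.52), Il2rg (0.36) and Ltb (0.11) were higher by less than 2-fold. Arhgdib (-0.12), Flt3 (-0.24), Selplg (-0.28) and Ptprcap (-0.60) were lower by less than 2-fold. The signs of Ltb, Flt3, Selplg and Il7r changed when single cells were left out.

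**Figure D2:**
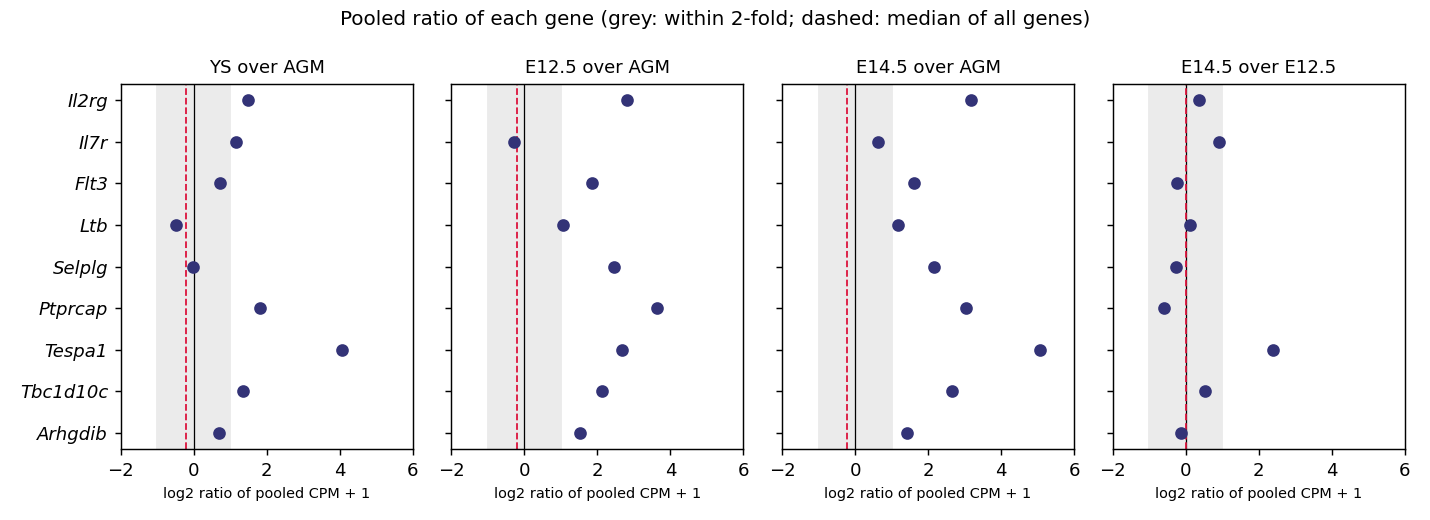
Log2 ratio of pooled CPM + 1 of each gene (x axis) in 4 comparisons, where YS is yolk sac and E12.5 and E14.5 are fetal liver; grey marks ratios within 2-fold and the dashed line the median of all 15239 genes. The genes lie mostly right of that median in the panels against AGM and within 2-fold in E14.5 over E12.5, apart from Tespa1 at 2.39.

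Shares of cells with a read gave a second description that gives each cell the same weight. In each comparison 7 of the 9 genes had the higher share in the first group. Of all genes, 44.3% had the higher share in yolk sac over AGM, 19.4% in E12.5 over AGM, 22.7% in E14.5 over AGM and 39.7% in E14.5 over E12.5. Over all genes the median difference in share was 0 points in yolk sac over AGM and in E14.5 over E12.5, and -6.25 points in either liver stage over AGM. The median difference of the 9 genes was 25, 16.7, 31.25 and 18.75 points in yolk sac, E12.5 and E14.5 over AGM and in E14.5 over E12.5. Intervals of the shares lay apart for 1 gene in yolk sac over AGM (Tespa1), beside 0.21% of all genes (0.131% for lower shares), and for 1 in E12.5 over AGM (Ptprcap), beside 0.151% (2.69% for lower shares). They lay apart for 4 genes in E14.5 over AGM (Il2rg, Ptprcap, Selplg and Tbc1d10c), beside 0.302% of all genes (2.24% for lower shares). With cells thinned to 690000 reads, which left out 5 AGM and 2 E14.5 cells, 2 of these 4 remained, Il2rg and Tbc1d10c. Shares of Ptprcap and Selplg were then 51.2% and 41.9% in AGM, and 92.9% and 85.7% at E14.5. With 10 CPM in the cell required, 5 genes lay apart, these 4 and Ltb. Shares of all genes in these other settings are not given here. For no gene of the set did the intervals lie apart in E14.5 over E12.5, beside 0.0591% of all genes for higher and 0.00656% for lower shares. In no comparison was the share of a member lower with intervals apart.

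The number of the 9 genes with a read in the same cell had medians of 4 in AGM (range 1 to 9), 5.5 in yolk sac (2 to 9), and in liver 6 at E12.5 (2 to 9) and 7 at E14.5 (5 to 9). At least 7 genes were found together in 4 of 48 AGM cells, or 8.33% (2.32% to 19.98%), and in 13 of 16 E14.5 cells, or 81.25% (54.4% to 96.0%). Yolk sac and E12.5 liver each had 7 such cells of 16, or 43.75% (19.8% to 70.1%). E14.5 cells were the most uniform: 10 of 16 had exactly 7 of the genes, and no cell had fewer than 5. At least 3 genes were found in 87.5% of the AGM group, 93.75% of the yolk sac group, and in liver in 93.75% at E12.5 against 100% at E14.5. In AGM cells 14, 18 and 45 the single gene detected was Arhgdib.

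The liver groups, with more of the 9 genes, had fewer genes detected per cell than AGM. After thinning, which left out 5 AGM, 0 yolk sac, 2 E12.5 and 2 E14.5 cells, the medians were 4, 5.5, 6.5 and 7 genes. With 10 CPM in the cell required, they were 3.5, 5, 5.5 and 7. Within a group, cells with more genes detected overall also held more of the 9, with Spearman correlations of 0.21 over the 48 AGM cells, 0.67 over the 16 of yolk sac, and in liver 0.67 over 16 cells at E12.5 and 0.39 over 16 at E14.5. Points within a group may share a library preparation, which the labels do not name, and these correlations are a description.

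All 9 genes were found together in 5 cells, AGM cell 8, yolk sac cells 1 and 2, E12.5 cell 1 and E14.5 cell 6. Of these, 4 were among the 6 cells with more than 10000 genes detected, and E14.5 cell 6 had 5579. Without those 6 cells, at least 7 genes were found in 2 of 45 AGM cells, 5 of 14 from yolk sac, and in liver 6 of 15 at E12.5 against 13 of 16 at E14.5. Whether such a well held more than 1 cell was not tested.

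**Figure D3:**
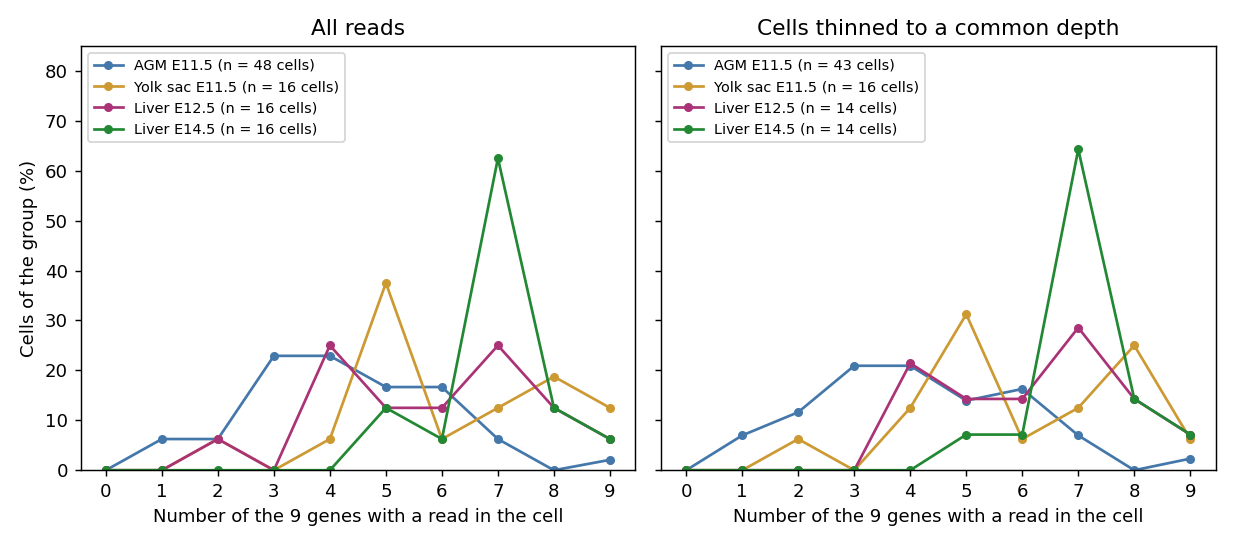
Share of the cells of each group in percent (y axis) by the number of the 9 genes with a read in the cell (x axis), with all reads at left and after thinning to 690000 reads at right. AGM cells centre on 3 and 4 genes, and E14.5 liver peaks at 7 genes, with 10 of 16 cells before thinning.

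Co-detection was examined for each of the 36 pairs of genes. The median pair was found in 23.96% of AGM cells, 53.1% in yolk sac, and in liver 56.25% at E12.5 and 68.75% at E14.5. Pairs found in at least 50% of the cells numbered 3 in AGM, 23 in yolk sac, and in liver 21 at E12.5 as at E14.5. Without the cells with more than 10000 genes detected, the median pair was found in 18.9% of AGM cells, 46.4% in yolk sac and 53.3% in E12.5 liver, and the pairs in at least 50% of the cells numbered 2, 18 and 19. E14.5 liver had no such cell.

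The AGM cells, being more numerous and mixed, were examined further for genes that met in the same cell. Of the 28 pairs without Arhgdib, which every AGM cell had, 20 had the second gene more often in cells with the first than in cells without it, 6 less often and 2 equally often. Without the 3 AGM cells with more than 10000 genes detected, these numbers of pairs were 13, 13 and 2. The pairs given here were chosen after their values were seen. Ltb had reads in 88.5% of the 26 AGM cells with Il2rg and in 45.5% of the 22 without it. Selplg was found in 57.7% of AGM cells with Il2rg and 22.7% of those without. Tbc1d10c was found in 65% of AGM cells with Selplg and 28.6% of those without. Flt3 was found in 54.5% of AGM cells with Ltb and in 26.7% of those without. Without the 3 cells these 4 pairs stood at 87.0% and 45.5%, 52.2% and 22.7%, 58.8% and 28.6%, and 53.3% and 26.7%, in the same order. Other pairs went the opposite way or were equal. Selplg was found in 16.7% of the 6 AGM cells with Tespa1 and 45.2% of those without, and Tbc1d10c in 40.9% of those with Flt3 and 46.2% of those without. Ptprcap was found in 50% of AGM cells with Il2rg as of those without. For Ptprcap and Tbc1d10c, the neighbours on chromosome 19, 50% of AGM cells with Ptprcap had Tbc1d10c, beside 37.5% of those without. All 9 cells with Il7r also had Ltb, Ptprcap and Arhgdib, 7 had Il2rg, 7 had Flt3, 6 had Selplg, 6 had Tbc1d10c and 5 had Tespa1. Of the 87 cells without Il7r, 72.4% had Ltb, 66.7% Ptprcap, 98.9% Arhgdib, 67.8% Il2rg and 56.3% Flt3. Selplg was found in 54.0% of those 87 cells, Tbc1d10c in 64.4% and Tespa1 in 24.1%. Of the 9 cells with Il7r, 4 were among those with more than 10000 genes detected.

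**Figure D4:**
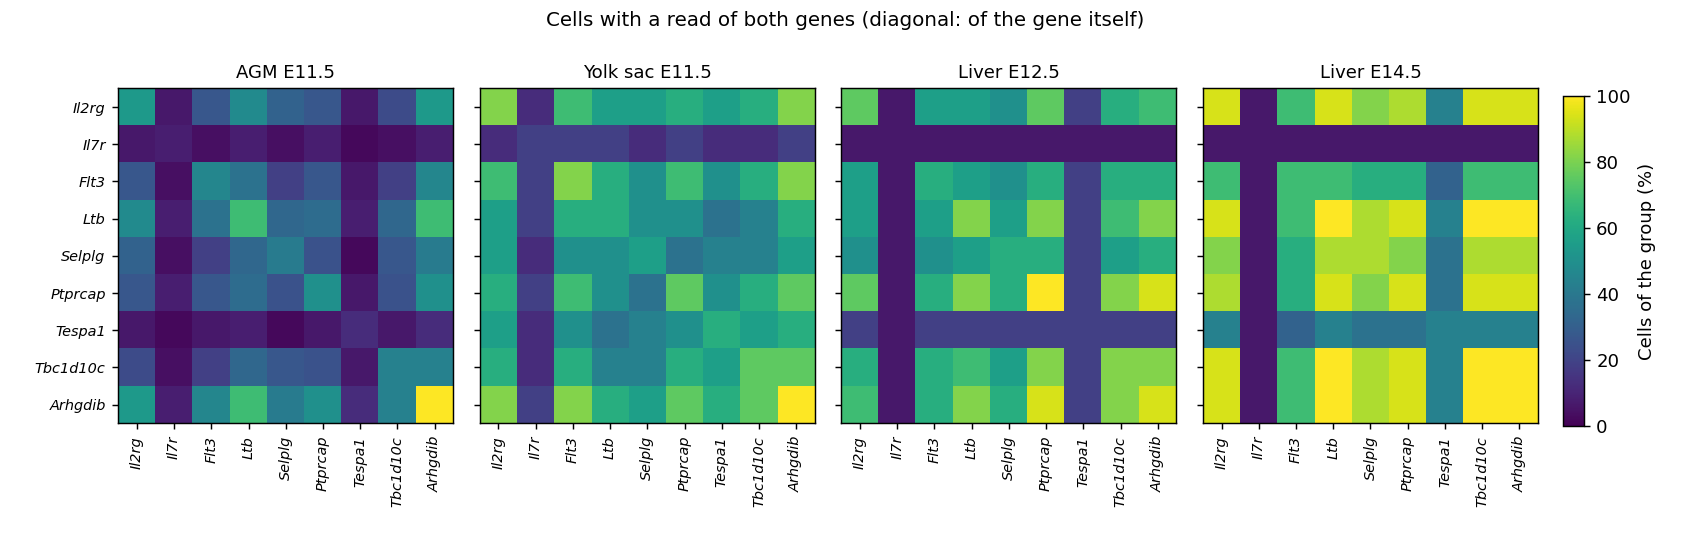
Share of the cells of each group, in percent by colour, with a read of both the row gene and the column gene; the diagonal is the share with a read of the gene itself. Most off-diagonal squares are dark in AGM, where the median pair is at 23.96%, and bright in E14.5 liver, at 68.75%, while the row of Il7r is dark in every panel.

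The working name was checked against lists of related genes, chosen with earlier results of these cells known. Of 23 markers of T, B and NK cells, 10 had enough reads, and the median cell had 1 of these 10 in every group. In E14.5 liver 7 of the 10 were at 0, among them Tcf7, Cd79a, Ebf1 and Vpreb1. Cd79b, a subunit of the B cell receptor complex, was detected in the most cells of the 10, with reads in 26, 10, 12 and 10 cells of AGM, yolk sac, E12.5 and E14.5 and pooled levels of 53.3, 78.9, 197.1 and 78.7 CPM. The other two with reads at E14.5 were Gata3, a transcription factor of T cells and other blood cells, and Nkg7, a granule protein of cytotoxic lymphocytes. Pooled Gata3 was 3.401, 0.179, 7.66 and 7.14 CPM in the same order of groups, from 12, 2, 3 and 2 cells. Pooled Nkg7 was 1.87, 1.48, 79.7 and 6.85 CPM, from 1, 2, 3 and 1 cells. Of 22 early lymphoid genes 14 were measured. Rag1, Rag2, Dntt, Ikzf3, Ccr9, Ly6d, Il18r1 and Spib were not, so the counts do not cover them. Over AGM, 4 of the 14 were at least 2-fold higher and 2 lower in yolk sac, 5 and 4 at E12.5, and 3 and 5 at E14.5. Of all genes, 8.61%, 15.6% and 15.3% were higher and 21%, 26% and 25.3% lower in the same comparisons. The median log2 ratios of the 14 genes were -0.01, 0.75 and 0.07 in these comparisons. Those of the 9 genes were 1.16, 2.13 and 2.17, and the difference between the lists was not tested. The set is therefore described here by its genes.

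Genes that work beside the members were counted in the same way. The shares of all genes to set beside the counts were 8.61%, 15.6% and 15.3% higher in yolk sac, E12.5 and E14.5 over AGM. For lower genes they were 21%, 26% and 25.3%, and no list was tested against them. On the common gamma chain and IL-7 receptor axis, 13 genes were measured, and over AGM 2 were at least 2-fold higher and 3 lower in yolk sac, 6 and 1 at E12.5, and 3 and 4 at E14.5. Il21r, a partner chain of Il2rg, had pooled levels of 8.21 CPM in AGM, 95.9 CPM in E12.5 liver and 49.0 CPM in that of E14.5. Stat5a, which acts downstream of the gamma chain, was lower at E14.5, at 0.923 CPM beside 25.4 CPM in AGM, while Stat5b had a log2 ratio of 1.55. In the lymphotoxin axis 3 of 10 genes were 2-fold higher and 2 lower in yolk sac, 1 and 2 at E12.5, and 2 and 1 at E14.5, and the receptor gene Ltbr had 46.1, 44.1, 37.6 and 35.8 CPM. Of 8 genes around FLT3, 0 were 2-fold higher and 0 lower in yolk sac, 1 and 1 at E12.5, and 1 and 2 at E14.5, with Pik3cd, a catalytic subunit of PI3-kinase, at 5.41 CPM in AGM and 64.5 CPM at E14.5.

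Lists around the other members are given by their counts, to be read beside the same shares of all genes. Of 16 genes of CD45 and antigen receptor type signalling, 1 was 2-fold higher and 4 lower in yolk sac, 2 and 4 at E12.5, and 3 and 3 at E14.5, and Ptprc, which encodes CD45 itself, had 72.7, 46.5, 77.7 and 58.5 CPM. Among 10 genes of calcineurin and Ras signalling, which carabin inhibits, 1 was higher and 1 lower in yolk sac, 0 and 4 at E12.5, and 0 and 1 at E14.5. Among 12 genes of selectin ligands and their sugars, 5, 5 and 2 were higher and 0, 1 and 1 lower in yolk sac, E12.5 and E14.5 over AGM.

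Markers of other cells moved with the comparisons too, and their counts are to be read beside the same shares of all genes. Of 16 genes common to leukocytes, 6, 7 and 7 were at least 2-fold higher in yolk sac, E12.5 and E14.5 over AGM, and 1, 0 and 2 lower, with median log2 ratios of 0.50, 0.66 and 0.82. Of 15 endothelial markers 9 were lower in each, with medians of -1.45, -1.36 and -1.50, and 2 of them, Cldn5 and Sox17, were at 0 at E14.5. The summed endothelial level ran from 335 to 17815 CPM per cell in AGM, 105 to 2858 in yolk sac, and in liver 7.99 to 3356 at E12.5 and 384 to 2873 at E14.5. Their part in the levels of the 9 genes was not tested. Over all 96 cells the number of the 9 genes per cell had a Spearman correlation of 0.60 with the number of leukocyte genes and -0.10 with that of endothelial markers, and within AGM these were 0.48 and 0.12. Within the 16 cells of each other group the correlation with leukocyte genes was 0.80 in yolk sac, and in liver 0.63 at E12.5 against 0.38 at E14.5, and that with endothelial markers was 0.77, 0.36 and 0.51 in the same order. In the globin-rich E14.5 cells 2, 3, 8, 13 and 16, the number of the 9 genes with a read was 7, 7, 6, 5 and 7, within the range of the other cells. Their summed levels of the 9 genes were 7685, 2430, 2637, 5918 and 2835 CPM in the same order. Those of cells 3, 8 and 16 were the lowest of the group, and the next, cell 5, had 3375 CPM. E12.5 cell 8 had 2 of the genes, at a summed level of 7.99 CPM.

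The genes whose level was most like the number of the 9 genes per cell were Lsp1, Lcp1, Rac2, Car2, Cd52, Satb1, H2afy and Samsn1. Likeness was the Spearman correlation over 96 cells, and it ran from 0.61 for Lsp1 to 0.48 for Samsn1. Among the 10138 genes with a read in at least 10% of cells the median was 0.085. Within the 48 AGM cells alone the same genes ran from 0.17 for H2afy to 0.43 for Rac2. Lsp1, a leukocyte actin-binding protein, had pooled levels of 140, 339, 695 and 736 CPM in AGM, yolk sac, E12.5 and E14.5. Lcp1, the actin bundler of blood cells, had 132, 328, 369 and 504 CPM.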

How the data were processed

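Single-cell RNA sequencing of 96 cells was analysed. The values deposited by the authors are raw read counts, whole numbers per gene in 1 table with a column per cell, and all 96 columns were matched by name, leaving 0 unmapped. The submitters' processing notes name FastQC, Trimmomatic 0.36, STAR and HTSeq and the build mm10, with no roles or order, and the annotation release is not given in the sources used here. No molecular identifiers are named, so counts are reads, not molecules, and intervals cover counting error only.

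Of 19949 rows, 113 shared a symbol and were summed, giving 19836 genes, of which 15239 had at least 30 reads. No cell fell under 1000 genes detected. Reads were summed per group and scaled to CPM, and log2 ratios were taken after adding 1 CPM. Pooled values have exact Poisson and shares exact Clopper-Pearson 95% intervals. Cells are not replicates, so no test was made. Python 3.11.15, pandas 2.3.3, numpy 2.4.6 and scipy 1.17.1 were used, and the ratio calculation was tested on simulated data. Doublets were not called: sorting placed 1 cell in a well, per the labels.

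The members and all lists were chosen with earlier results of these data known. Lists covered the common gamma chain and IL-7 receptor, lymphotoxin, CD45 and antigen receptor, calcineurin and Ras, FLT3 and selectin ligand axes, early lymphoid, T, B and NK cell, leukocyte, endothelial, myeloid, macrophage, erythroid, megakaryocyte, hepatocyte and mesenchymal genes. A further list is not reported here. Named genes were all members, at most 2 genes per list and comparison with the largest ratio and detection in 25% or more of the higher group's cells, and the 8 other genes most like the number of members per cell. Neighbouring, overlapping and paralogous genes, receptors and Cd79b were named for their relation to a member.

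Alternatives were a minimum of 10 CPM, thinning to 690000 reads with cells under that depth left out, at least 2000 genes per cell, no globin-rich cells, AGM cells 1 to 16, mean CPM, 10 CPM added, median-of-ratios scaling, no minimum on reads and leaving out each cell in turn. Leaving out cells with over 10000 genes, and comparing shares and lists under other settings, were chosen after seeing the data.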

Additional observations from a re-analysis of the deposited data

How the results depend on the processing

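No paired analysis was possible because cell numbers name no shared animal or litter and the results come from no test. Each group is 1 sample, so differences between animals are not covered. Requiring 10 CPM put the share of AGM cells with at least 3 genes at 72.9% in place of 87.5%. For E12.5 cells this share was 100% in place of 93.75% after thinning, with at least 2000 genes per cell and without globin-rich cells, each of which leaves out cell 8. Leaving out each cell in turn, the count of genes at least 2-fold higher ran from 4 to 5 in yolk sac over AGM, 7 to 8 in E12.5 over AGM, 7 to 9 in E14.5 over AGM and 1 to 2 in E14.5 over E12.5. The count at least 2-fold lower ran from 0 to 1 in each of the 4 comparisons. In E14.5 over E12.5 the count of genes higher was also 2 in place of 1 with the mean of the cells' CPM, with thinning, without globin-rich cells and without cells over 10000 genes, each time by the addition of Il7r. Without cells over 10000 genes, the count lower in E12.5 over AGM was 1 in place of 0, since Il7r was then at 0 reads at E12.5.

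Il7r in yolk sac over AGM ran from -0.46 without yolk sac cell 5, a reversed sign, to 1.93 without AGM cell 30. With 10 CPM added, Il7r in yolk sac over AGM was 0.47, under 2-fold. With AGM cells 1 to 16 alone, Ltb, Selplg and Flt3 in yolk sac over AGM were 0.96, 0.70 and 1.62. In the same setting Il7r was 1.52 in E12.5 over AGM and 2.44 in E14.5 over AGM. Median-of-ratios scaling put Selplg in yolk sac over AGM at 0.06 and moved the median of all genes by at most 0.08. Thinning put Ltb in E14.5 over AGM at 0.77, and the mean of the cells' CPM put Ltb in E12.5 over AGM at 0.81, both under 2-fold. Among the context lists, the macrophage median in E12.5 over AGM was 4.63, but -0.048 with thinning and -0.024 without globin-rich cells, and in E14.5 over E12.5 it was -1.78, but 1.80 and 2.54. The erythroid median in E14.5 over E12.5 was 5.71, but -0.86 without globin-rich cells. Thinning and leaving out globin-rich cells both remove E12.5 cell 8, which had a summed level of 19634 CPM of the macrophage markers. The erythroid list includes globin genes, and the second setting removes the cells with over 1000 CPM of globin. The cause of these changes in other settings was not tested further. Depth and 16 cells a group limit what the shares can show. Their intervals spanned up to 50.4 points, as for Selplg in yolk sac, at 56.25% (29.9% to 80.2%).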

Other observations

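Lists that bear on no comparison of the 9 genes are given as values. Of all genes, 8.61%, 15.6% and 15.3% were at least 2-fold higher in yolk sac, E12.5 and E14.5 over AGM, and 21%, 26% and 25.3% lower. Of 7 granule genes of myeloid cells, 2 were at least 2-fold higher in each of yolk sac, E12.5 and E14.5 over AGM, and 1, 0 and 0 were lower. Of 6 megakaryocyte markers, 3, 1 and 1 were higher and 1, 3 and 3 lower in the same comparisons. Of 4 genes listed as hepatocyte markers, 3 were higher in yolk sac over AGM, and 2 were lower in each liver stage over AGM. The 3 were Afp, Apoa1 and Ttr, with reads in 7, 2 and 1 yolk sac cells, and the source of these transcripts was not tested. Of 5 macrophage markers, 0, 4 and 4 were higher and 2, 0 and 0 lower in yolk sac, E12.5 and E14.5 over AGM. Each of the 4 higher at E12.5 had reads in only 1 or 2 cells of that group. Those higher at E14.5 had reads in 1 to 3 cells each. The median cell had a summed level of 0 CPM of these markers in every group, and E12.5 cell 8 had 19634 CPM. Of 10 erythroid markers 2, 7 and 10 were higher and 2, 0 and 0 lower. Of 6 mesenchymal markers, 0, 0 and 1 were higher and 1, 4 and 4 lower, the 1 being Postn, with a log2 ratio of 1.24.

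Among pairs of the 9 genes, levels within the 48 AGM cells had their highest Spearman correlation for Ltb with Flt3, at 0.51, followed by Selplg with Tbc1d10c, at 0.45, and their lowest for Arhgdib with Tbc1d10c, at -0.25. Over all 96 cells the pair of Arhgdib and Tbc1d10c stood at 0.44, so its sign within AGM was opposite to that across the groups. The highest pair over all 96 cells was Ptprcap with Arhgdib, at 0.64. AGM cell 40, which had the highest Ltb level of any cell at 3494 CPM, also had the highest Flt3 level in AGM at 428 CPM. Points of 1 group may share a preparation, which the labels do not name, and they differ in depth. These correlations are descriptions.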
